A study of Mus musculus with 59 samples.

Results

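The creatine cycle genes Ckb, Ckmt1, Ckmt2, Gatm, Gamt, Slc6a8 and Alpl were followed through 3 RNA-seq experiments on mouse brown adipose tissue (BAT). They are 7 of the 55341 genes of the count tables and were taken by name rather than by a threshold on a measured value. The tissue came from 59 male C57BL/6J mice of 8 to 12 weeks in 15 groups. Each numbered library is called a mouse here, and pooling of animals is not mentioned in the sources used here.

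In the thyroid hormone (TH) experiment all 30 mice ate food with propylthiouracil (PTU), a drug that blocks the thyroid gland's hormone synthesis. The 4 wild-type (WT) mice without hormone (WT PTU) were compared with 4 WT mice each at 3 h, 6 h, 12 h and 24 h after TH, which the methods give as a single injection of both thyroid hormones, T3 and T4. The same experiment held 5 BATKO mice on PTU (BATKO PTU) and 5 BATKO mice 24 h after TH. In the temperature experiment, 3 control (CTRL) mice at 4 °C, 4 CTRL mice at 30 °C, 4 BATKO mice at 4 °C and 5 BATKO mice at 30 °C were sampled. In the diet experiment there were 4 CTRL mice on high-fat diet (HFD), 4 CTRL mice on chow, 3 BATKO mice on HFD and 2 BATKO mice on chow. The labels attach 24 h to the temperature experiment and 3.5 d to the diet experiment, without saying what these times are. Neither the labels nor the methods name the gene changed in BATKO mice or the promoter that drives the change, so the knockout could not be checked in the counts and BATKO is used as a label.

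Creatine is made from arginine and glycine in consecutive steps, by the enzymes encoded by Gatm, which forms guanidinoacetate, and Gamt, which adds the methyl group. Slc6a8 encodes the plasma membrane transporter that imports creatine. Creatine kinases move phosphate between ATP and creatine: Ckb encodes the brain-type enzyme, Ckmt1 the ubiquitous mitochondrial enzyme and Ckmt2 the sarcomeric mitochondrial enzyme, which is abundant in striated muscle. In brown adipocytes, phosphocreatine can be hydrolysed again by the alkaline phosphatase TNAP, the product of Alpl, and this repeated phosphorylation and hydrolysis of creatine is a heat-producing route separate from the uncoupling protein UCP1.

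Libraries held 7612059 to 18073627 counts over the 3 experiments, and genes of the mitochondrial genome took 39.2% to 55.7% of them. The defining genes of brown adipocytes, such as Ucp1 (at least 1833 counts) and Cidea (at least 2788 counts), were present in every library. Levels in CPM are counts scaled to the same library total in every mouse. The summed CPM of 12 fast skeletal muscle markers, all of them detected, ran from 9.58 in 1 mouse to 8427 in another, an 880-fold range, and 12 of 59 libraries lay above 3 times the median of their experiment. The summed CPM of 8 brown adipocyte markers was 8331 ± 919 (SD, n = 4) in WT PTU mice and 2646 ± 467 (SD, n = 5) in BATKO PTU mice. No pair of mice of the same group had counts that agreed within sampling noise. In bulk tissue, fewer cells of a type and less RNA per cell cannot be told apart.

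Ckb lies on chromosome 12 (111669361 to 111672338, minus strand), Ckmt2 on chromosome 13 (91853387 to 91876885, minus) and Gamt on chromosome 10 (80258151 to 80261012, minus), in GRCm38 coordinates of the GENCODE vM21 annotation. Gatm and Ckmt1 are on chromosome 2, at 122594467 to 122611303 on the minus strand and at 121357714 to 121363737 on the plus strand. Slc6a8 is on chromosome X (73673150 to 73682502, plus), and Alpl on chromosome 4 (137741733 to 137796384, minus). Exon unions measured 1444 bases for Gamt to 5210 bases for Slc6a8. Ckmt1 overlaps Strc by 10 bases and Ckmt2 overlaps the gene 1700119I11Rik by 613 bases, of which 96 are exonic, in both cases on the opposite strand. Whether counting used the strand is not given in the sources used here, so reads in these stretches cannot be assigned with certainty. The pseudogenes Ckb-ps1 and Ckb-ps2 had at most 1 count in any library.

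The 250 bases before the annotated start sites of Ckb and Alpl are shown because these genes had the largest called responses of the group to TH and cold, and Alpl has alternative starts far apart. They are RefSeq sequences of build GRCm38.p6, read 5′ to 3′ on the gene's minus strand, from chr12:111672339-111672588 for Ckb, chr4:137796385-137796634 for the upstream start of Alpl and chr4:137766476-137766725 for its downstream start. Capitals mark AGGTCA, the core motif bound by thyroid hormone receptors and other nuclear receptors.
Ckb: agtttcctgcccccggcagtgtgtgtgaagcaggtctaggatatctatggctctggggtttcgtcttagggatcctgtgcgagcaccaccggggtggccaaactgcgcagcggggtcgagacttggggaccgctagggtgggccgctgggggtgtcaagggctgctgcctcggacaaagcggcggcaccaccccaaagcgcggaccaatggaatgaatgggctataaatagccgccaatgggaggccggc
Alpl, upstream start: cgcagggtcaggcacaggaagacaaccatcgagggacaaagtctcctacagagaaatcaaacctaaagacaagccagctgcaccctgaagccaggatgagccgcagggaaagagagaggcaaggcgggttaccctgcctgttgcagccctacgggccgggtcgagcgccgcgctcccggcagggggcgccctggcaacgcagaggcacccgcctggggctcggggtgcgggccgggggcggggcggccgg
Alpl, downstream start: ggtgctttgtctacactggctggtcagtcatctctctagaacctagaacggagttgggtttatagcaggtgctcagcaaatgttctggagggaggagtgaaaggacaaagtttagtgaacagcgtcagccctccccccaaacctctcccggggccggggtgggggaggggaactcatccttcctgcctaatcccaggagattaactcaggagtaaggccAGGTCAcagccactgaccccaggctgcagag

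Promoter windows from 250 bases before to 50 after the start were found for 6 of the 7 genes, 8 windows in all. They were searched on both strands for AGGTCA, for DR4 (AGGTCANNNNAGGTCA), for TCAAGGTCA and for TGACGTCA; DR4 and TCAAGGTCA contain AGGTCA. The short motif began at -31 from the downstream start of Alpl, and on the other strand at -156 from the start of Gatm and at -179 from a start of Ckmt1. It was in 16.3% of all 32851 windows of this length. No window of these genes held DR4 (in 0.0152% of all windows), TCAAGGTCA (0.423%) or TGACGTCA (1.79%), which says only that these letters are not in these windows.

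Compared per length, as CPM per kilobase of exon (each experiment normalised on its own), the order of the creatine genes differed between the experiments. In the TH experiment the mean over group means fell from Alpl (4.18 ± 2.23, SD over 30 mice) through Ckmt2 (2.86 ± 3.63), Ckb (2.42 ± 2.46), Slc6a8 (1.76 ± 0.797) and Gamt (1.55 ± 0.467) to Gatm (0.927 ± 0.323). Neighbours in this order were often interchanged between mice: Ckb exceeded Slc6a8 in 15 of 30 mice, and Slc6a8 exceeded Gamt in 15 of 30, whereas Alpl exceeded Ckmt2 in 24 and Gamt exceeded Gatm in 27. In the diet experiment Slc6a8 came first (5.07 ± 0.995, SD over 13 mice) and exceeded Alpl (3.35 ± 0.626) in 12 of 13 mice. In the temperature experiment Ckmt2 had the highest mean (9.97 ± 15.7, SD over 16 mice), yet it exceeded the next gene, Alpl (8.05 ± 5.97), in 6 of 16 mice. Gatm had Ckmt1 alone below it in the TH and temperature experiments, while in the diet experiment it exceeded Gamt in 11 of 13 mice.

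**Figure D1:**
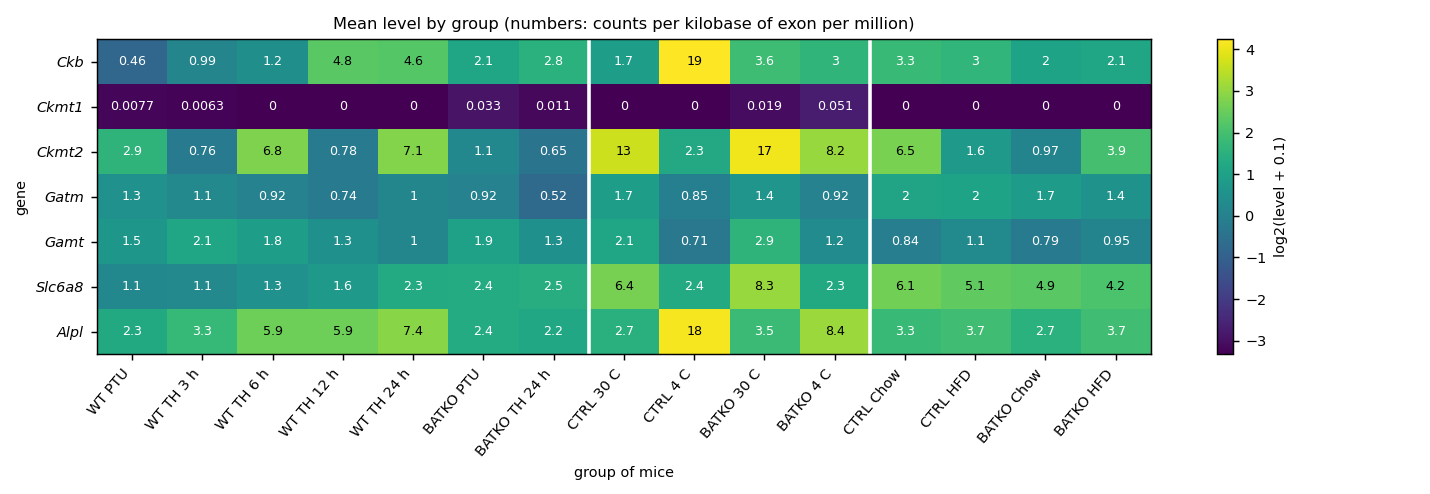
Mean level of the 7 creatine genes (rows) in the 15 groups of mice (columns), as CPM per kilobase of exon, with colour on a log2 scale after adding 0.1; white lines separate the TH, temperature and diet experiments, which were normalised separately. Ckb and Alpl are highest in CTRL mice at 4 °C (18.8 and 17.6), and Ckmt1 is at or near 0 in every group.

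Ckmt1 was all but absent: it had no count in 48 of 59 libraries and at most 3 counts in any. A count of 0 allows up to 3 counts, which is 0.166 to 0.394 CPM depending on the library. It passed no filter on low counts (a mean normalised count above 10) and was tested in no comparison. The other 6 genes passed it in every experiment.

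In WT mice, TH was followed by higher Ckb (called at 12 h and 24 h), Alpl (from 6 h on) and Slc6a8 (12 h and 24 h), and by lower Gatm at 12 h. Each time was set against PTU alone, and times were not tested against each other. Tests are edgeR's quasi-likelihood tests over all genes with Benjamini-Hochberg adjustment (called means an adjusted p below 0.05). Nothing in the labels says that the samples of a group came from separate animals beyond their numbers, so p-values measure the spread between these samples. At 3 h none of the 6 tested creatine genes was called (background 9.19% of 13003 genes). Of the 6, 3 had an unadjusted p below 0.05, as did 3244 of all genes. DESeq2 called 0 of the 6 and 1407 of all genes. At 6 h 1 of 6 was called (background 23%), at 12 h 4 of 6 (background 25.7%) and at 24 h 3 of 6 (background 32.7%). Of 5 general adipocyte markers 5 were called lower at 12 h and 4 at 24 h, and their sum was 8914 to 9989 CPM in WT PTU mice, 5126 to 6764 CPM at 12 h and 4493 to 4708 CPM at 24 h. At 6 h 1 was called lower, with a sum of 7523 to 8503 CPM. Of 8 brown adipocyte markers 2 were called higher and 3 lower at 24 h, and their sum was above that of the PTU mice (7394 to 9549 CPM) at every time, with 9782 to 15421 CPM at 3 h, 12297 to 14550.2 CPM at 6 h, 11137 to 18184 CPM at 12 h and 9886 to 17120 CPM at 24 h. The endothelial sum was 349 to 358 CPM on PTU, 372 to 398 CPM at 3 h and 278 to 347 CPM at 12 h, and the Schwann cell sum was 68.0 to 78.1 CPM on PTU and 57.9 to 66.7 CPM at 12 h. The white adipocyte sum was 106 to 118 CPM on PTU and 59 to 102 CPM at 3 h. None of these ranges overlapped with that of the PTU mice. No marker of these lists was at 0 throughout a group, and their part in the results was not tested.

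Ckb, the cytosolic kinase, was the most responsive. Its normalised counts (scaled to the mean library of the experiment, and given here in the order of mouse numbers) were 17.1, 19.1, 16.6 and 17.3 in the 4 WT PTU mice. They were 37.1, 30.5, 25 and 57.1 at 3 h and 31.6, 27.8, 46.4 and 83.7 at 6 h. Every TH-treated mouse of these groups was already above every PTU mouse. The values were 96.0, 47.5, 121 and 462 at 12 h and 105, 104, 278 and 211 at 24 h, so that the lowest mouse at 24 h stood above the highest PTU mouse by a wide margin. Ckb rose 10.2-fold at 12 h (log2 fold change 3.35, SE 0.59, adjusted p = 0.000217) and by a like amount at 24 h (log2 fold change 3.32, SE 0.58, adjusted p = 0.000162). At 3 h (log2 fold change 1.09, SE 0.64, adjusted p = 0.3) and 6 h (1.44, SE 0.63, adjusted p = 0.101) it did not pass the test, although the groups did not overlap. In a fit of the compared groups alone it passed at both times (adjusted p = 0.0319 and 0.00823), and without the filter on low counts it passed at 6 h (adjusted p = 0.0219). At 12 h mouse B23 alone had 462, and without it the log2 fold change was 2.36, still past the threshold.

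Alpl, which encodes the phosphatase of the cycle, was called higher from 6 h on. Its normalised counts were 124, 114, 106 and 142 in WT PTU mice and 104, 196, 161 and 232 at 3 h, where the groups overlapped. At 6 h the counts were 285, 239, 344 and 369, at 12 h 312, 279, 289 and 358, and at 24 h 266, 291, 521 and 482. From 6 h on all 12 treated mice stood above all 4 PTU mice. The log2 fold change was 1.34, SE 0.23, adjusted p = 0.000239 at 6 h and 1.69, SE 0.23, adjusted p = 8.61e-06 at 24 h, a 3.23-fold rise. The same 2 mice at 24 h, B27 and B28, had the highest Alpl and the highest Ckb of that group.

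Slc6a8, the creatine importer, was called higher at 12 h and 24 h. The WT PTU mice had 71.3, 50.2, 93.0 and 72.6 normalised counts, the mice at 3 h 68.0, 74.7, 61.4 and 87.8 and those at 6 h 86.5, 96.7, 93.7 and 81.0. These groups overlapped and neither time passed the test. At 12 h the values were 98.2, 82.0, 91.3 and 165, again overlapping with the PTU mice, and at 24 h 168, 168, 174 and 129, with no overlap. Slc6a8 was 2.2-fold higher at 24 h (log2 fold change 1.14, SE 0.20, adjusted p = 0.000138). Its call at 12 h (log2 fold change 0.59, SE 0.20, adjusted p = 0.0366) was lost without WT PTU mouse B2 (adjusted p = 0.0747), B3 (0.12) or B5 (0.0612) or TH mouse B23 (0.195), and with the summed muscle markers as a covariate (log2 fold change 0.63, adjusted p = 0.0714). It was also lost without the muscle-rich libraries (adjusted p = 0.0533), in a fit of the compared groups alone (0.0878) and in a fit of all 30 mice (0.119). The log2 fold change was 0.34 without B23.

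The enzymes of creatine synthesis went the other way or did not pass the test. Gatm had normalised counts of 52.2, 53.8, 70.5 and 32.2 in WT PTU mice and 29.6, 30.2, 18.3 and 38.5 at 12 h, when it was called lower (log2 fold change -0.86, SE 0.24, adjusted p = 0.00978) although mouse B23 with 38.5 stood above PTU mouse B5 with 32.2. With the muscle markers as a covariate the log2 fold change was -0.78 (adjusted p = 0.0508). At 24 h the counts were 37.4, 50.2, 32.1 and 36.9 and the log2 fold change -0.43, SE 0.22, adjusted p = 0.143. At 6 h (-0.55, SE 0.22, adjusted p = 0.0769) Gatm would pass without WT PTU mouse B5 (adjusted p = 0.022) or TH mouse B12 (0.0465) or without the muscle-rich libraries (0.0441), and at 24 h without B5 (0.0402). Gamt was called at no time. At 3 h every mouse (35.1 to 43.3) was above every PTU mouse, with a log2 fold change of 0.46, SE 0.22, adjusted p = 0.195. It went from 29.1, 16.7, 34.0 and 33.4 in WT PTU mice to 21.2, 16.3, 22.4 and 16.2 at 24 h (log2 fold change -0.59, SE 0.24, adjusted p = 0.0664), and passed only without WT PTU mouse B3 (adjusted p = 0.0175), the PTU mouse with the lowest count.

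**Figure D2:**
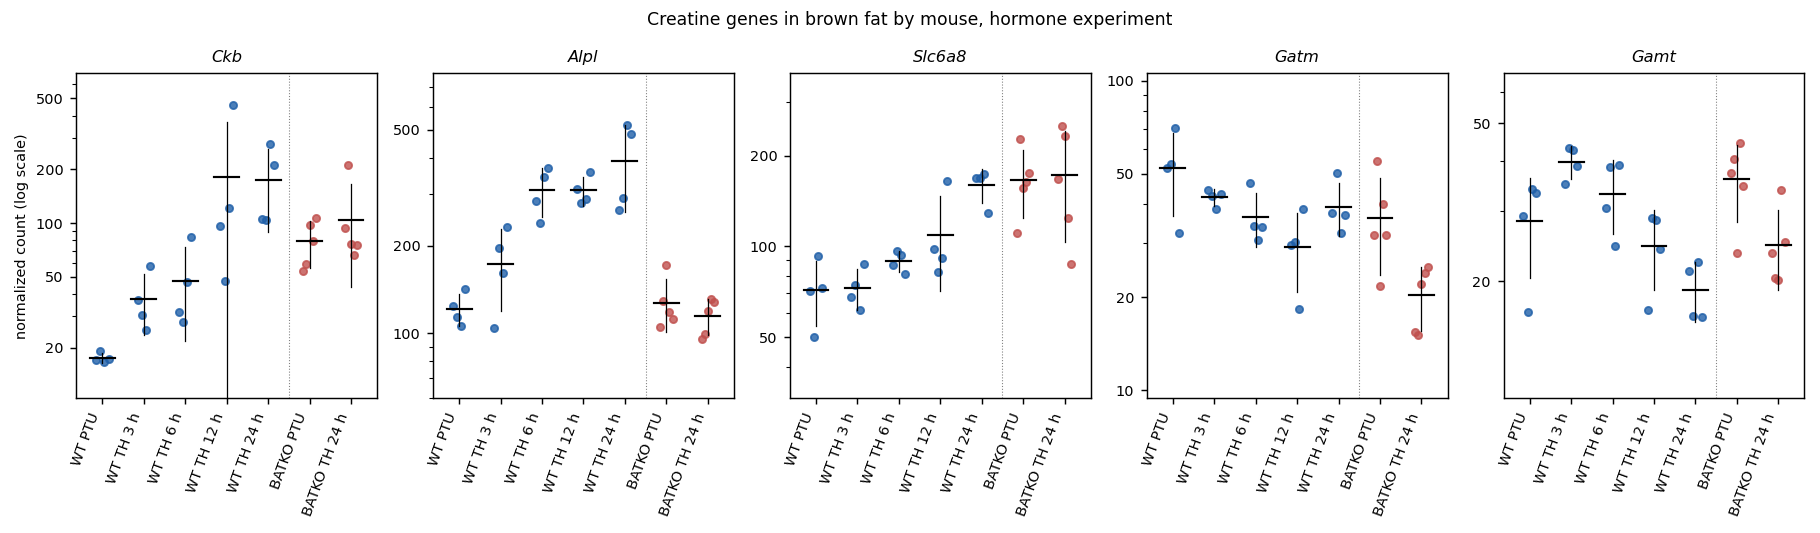
Normalised counts (log axis, different for each panel) of 5 creatine genes in every mouse of the TH experiment; points are mice (blue WT, red BATKO), horizontal bars group means and vertical lines 1 SD either side, cut where they would leave the panel. In WT mice Ckb climbs from 17.5 ± 1.11 on PTU to 175 ± 85.5 at 24 h and Alpl from 121 ± 15.3 to 390 ± 130 (mean ± SD, n = 4), while Alpl in BATKO mice stays between 95.6 and 171.

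In BATKO mice the same hormone treatment gave no called gene. After 24 h 0 of 6 creatine genes were called (background 0% of 14178 genes by edgeR and 0 by DESeq2); 673 genes had an unadjusted p below 0.05, among them Gatm and Gamt. Ckb had normalised counts of 53.8, 59.1, 98.1, 79.0 and 107 in BATKO PTU mice and 94.0, 212, 75.8, 66.0 and 75.2 after TH. The groups overlapped, with mouse 8 of the TH group standing apart above the rest, and the log2 fold change was 0.40 with a 95% interval of -0.42 to 1.23. Without mouse 8 it was -0.03. Alpl had 105, 129, 171, 118 and 112 before and 95.6, 99.2, 119, 131 and 128 after TH, with a log2 fold change of -0.16 (95% interval -0.54 to 0.23). The upper bound lies under the log2 fold change of 1.69 in WT mice. Slc6a8 had 111, 227, 156, 163 and 175 before and 167, 249.8, 232, 125 and 87.7 after TH, and its log2 fold change was 0.05 (95% interval -0.37 to 0.47).

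The TH response at 24 h differed between BATKO and WT mice for 3 of the 6 genes, all of them lower in BATKO (background 12.3% of 14178 genes called for this difference). The difference of the log2 responses, BATKO minus WT, was -2.92, SE 0.71, adjusted p = 0.00659 for Ckb, -1.85, SE 0.29, adjusted p = 0.00011 for Alpl and -1.09, SE 0.33, adjusted p = 0.0307 for Slc6a8. The starting levels differed too. On PTU alone, all 5 BATKO mice (53.8 to 107) exceeded all 4 WT mice (16.6 to 19.1) in Ckb and likewise in Slc6a8 (111 to 227 against 50.2 to 93.0), whereas Alpl on PTU overlapped between the genotypes (105 to 171 against 106 to 142). For Slc6a8 the BATKO PTU range included the range of WT mice 24 h after TH, and for Ckb it lay mostly below that of the same WT mice (104 to 278). The brown adipocyte marker sum was 7394 to 9549 CPM in WT PTU mice and 2110 to 3216 CPM in BATKO PTU mice, without overlap. Sums of 3 other lists did not overlap between these groups either: white adipocyte markers (106 to 118 CPM in WT and 29.1 to 51.6 CPM in BATKO mice), endothelial markers (349 to 358 and 429.9 to 488 CPM) and macrophage markers (28.3 to 46.0 and 16.8 to 27.2 CPM). The sum of the general adipocyte markers did overlap (8914 to 9989 CPM in WT and 9318 to 10492.5 CPM in BATKO mice). No marker of these lists was at 0 throughout a group, and their part in these results was not tested. The difference between the PTU groups was not tested either, and genotype cannot be told apart from any other difference between the WT and BATKO sets of mice. The result for Slc6a8 was lost without WT PTU mouse B2 (adjusted p = 0.0514) or B3 (0.0814), WT TH mouse B27 (0.0577), BATKO PTU mouse 3 (0.0644) or BATKO TH mouse 10 (0.0603), without the 3 libraries richest in muscle RNA (0.108) and in a fit of the compared groups alone (0.0646). For Gatm the difference was -0.41, SE 0.34, adjusted p = 0.473, and for Gamt 0.03, SE 0.31, adjusted p = 0.973. In BATKO mice Gatm had 31.7, 55.1, 21.8, 39.9 and 31.8 before and 15.4, 15.1, 22.1, 23.8 and 25.1 after TH (log2 fold change -0.84, SE 0.24, adjusted p = 0.932), and Gamt 37.5, 40.5, 23.5, 44.5 and 34.6 before and 23.5, 20.4, 20.2, 33.9 and 25.1 after (log2 fold change -0.55, SE 0.20, adjusted p = 0.963). Both overlapped between the groups and neither passed.

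In CTRL mice at 4 °C the kinase Ckb and the phosphatase Alpl were higher than at 30 °C, while the importer Slc6a8 and both synthesis enzymes, Gamt and Gatm, were lower. At 4 °C against 30 °C 5 of 6 genes were called, 2 higher and 3 lower, where 49.1% of all 13267 genes were called. In BATKO mice 3 of 6 were called, 1 higher and 2 lower (background 40.3%). All 8 brown adipocyte markers were called higher at 4 °C in CTRL mice and 7 of 8 in BATKO mice. Their summed level was 17654 to 23056 CPM in CTRL mice at 4 °C against 761 to 2895 CPM at 30 °C, and 9510 to 17515 against 1803 to 3177 CPM in BATKO mice, with none at 0 in a whole group. Of 5 general adipocyte markers 2 were called higher and 1 lower in CTRL mice and 2 higher in BATKO mice, and their sum did not overlap between temperatures (9996 to 10855 CPM at 4 °C against 5309 to 6432 CPM at 30 °C in CTRL mice, and 9582 to 12209 against 5403 to 6375 CPM in BATKO mice). Of 4 white adipocyte markers 2 were called lower in the cold in each genotype, with 10.5 to 48.7 CPM at 4 °C and 41.5 to 169 CPM at 30 °C in CTRL mice and 26.3 to 91.3 against 82.9 to 193 CPM in BATKO mice. Of 5 fibroblast markers 3 were called lower in CTRL and 1 in BATKO mice (231 to 254 against 313 to 447 CPM, and 263 to 473 against 277 to 348 CPM). Of 5 red blood cell markers 3 were called higher in each genotype (766 to 1711 against 177 to 333 CPM, and 771 to 1111 against 182 to 494 CPM). The sum of 6 macrophage markers, none of them called in CTRL mice and 1 called higher in BATKO mice, was 53.6 to 58.1 CPM at 4 °C against 59.2 to 91.4 CPM at 30 °C in CTRL mice, without overlap, and 57.9 to 79.6 against 43.8 to 63.5 CPM in BATKO mice. That of 5 lymphocyte markers, all too low to be tested, was 0.492 to 1.13 against 2.04 to 3.76 CPM in CTRL mice, without overlap, and 0.564 to 4.98 against 1.13 to 3.14 CPM in BATKO mice. No marker of these lists was at 0 throughout a group. The part of any of these lists in the results was not tested.

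Ckb had normalised counts of 34.7, 73.9, 49.7 and 60.2 in the 4 CTRL mice at 30 °C and 557, 728 and 485 in the 3 at 4 °C. The rise was 10.8-fold (log2 fold change 3.43, SE 0.33, adjusted p = 7.08e-07). In BATKO mice the counts were 87.8, 188, 62.4, 112 and 118 at 30 °C and 67.1, 119, 122 and 69.5 at 4 °C, and the groups overlapped. The log2 fold change was -0.27 (95% interval -0.84 to 0.30). Ckb was lower in BATKO than in CTRL mice at 4 °C by a log2 fold change of -2.65, SE 0.32, adjusted p = 0.000677. It was 1 of the 2 creatine genes called there, both lower (background 2.16%). The brown adipocyte sum did not overlap between these groups (9510 to 17515 CPM in BATKO, 17654 to 23056 CPM in CTRL mice). Nor did the fibroblast sum (263 to 473 against 231 to 254 CPM), while the other marker sums overlapped. The part of these markers in the calls was not tested. Ckb was the only one of the 6 genes called for a difference between the cold responses (background 1.12%), which was -3.70, SE 0.44, adjusted p = 0.000969, BATKO minus CTRL.

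At 30 °C none of the 6 creatine genes was called between BATKO and CTRL mice (background 0.00754%, 1 gene by edgeR and 8 by DESeq2, with 1209 genes at unadjusted p below 0.05). Ckb alone of the 6 had an unadjusted p below 0.05, and its log2 fold change was 1.05, SE 0.30, adjusted p = 0.542, with the groups overlapping; DESeq2 called 0 of the 6. Without the 4 libraries richest in muscle RNA, all of them at 30 °C, the Ckb values were 3.65 for the cold response of CTRL mice and -4.0 for the difference between the responses, both past the threshold.

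Alpl had 111, 132, 100.3 and 129 in CTRL mice at 30 °C and 921, 756 and 637 at 4 °C, a 6.53-fold rise (log2 fold change 2.71, SE 0.27, adjusted p = 8.81e-07). In BATKO mice it went from 90.4, 160.3, 133, 200.1 and 177 at 30 °C to 244, 553, 386 and 299 at 4 °C and also rose (log2 fold change 1.28, SE 0.23, adjusted p = 0.000406). At 4 °C every BATKO mouse stood below every CTRL mouse (log2 fold change -1.06, SE 0.26, adjusted p = 0.0426). The brown adipocyte sum given above also had every BATKO mouse below every CTRL mouse there, and its part was not tested. The call of Alpl was lost without CTRL mouse 1 (adjusted p = 0.169) or 2 (0.119) or BATKO mouse 7 (0.0841), 11 (0.0601) or 12 (0.119), and in a fit of the 2 groups alone (0.0936). The difference between the cold responses of Alpl was -1.43, SE 0.35, adjusted p = 0.0586 and did not pass, while DESeq2 gave -1.42 (adjusted p = 0.00656), and it passed without the filter on low counts (0.0336) and without CTRL mouse 5 (0.0279) or BATKO mouse 8 at 4 °C (0.0353) or 13 at 30 °C (0.0329).

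Slc6a8 fell in the cold in both genotypes. CTRL mice had 285, 417, 378 and 371 at 30 °C and 142, 149.6 and 113 at 4 °C, and BATKO mice 324, 544, 435, 517 and 523 and 89.8, 129.5, 121 and 184. Neither pair of groups overlapped. The log2 fold change was -1.43, SE 0.23, adjusted p = 8.88e-05 in CTRL mice and -1.84, SE 0.20, adjusted p = 4.63e-06 in BATKO mice, and the difference between them did not pass (-0.41, 95% interval -0.99 to 0.17). Slc6a8 was called lower after cold and higher after TH, in experiments that were normalised and fitted separately.

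Gamt, the methylating enzyme, fell in the cold as well. It had 16.5, 39.1, 34.3 and 42.3 normalised counts in CTRL mice at 30 °C against 18.4, 9.35 and 5.83 at 4 °C, and 33.2, 53.4, 38.8, 56.0 and 50.1 in BATKO mice at 30 °C against 21.6, 20.0, 17.9 and 13.3 at 4 °C. The CTRL groups overlapped through mouse 1 at 4 °C and mouse 19 at 30 °C, and the BATKO groups did not overlap. Without CTRL mouse 1 at 4 °C the log2 fold change in CTRL mice was -2.15, still past the threshold. With all mice it was -1.55, SE 0.39, adjusted p = 0.00345 in CTRL and -1.34, SE 0.31, adjusted p = 0.0028 in BATKO mice.

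Gatm, the first step of synthesis, had 47.7, 43.5, 65.1 and 71.8 at 30 °C against 11.0, 28 and 44.3 at 4 °C in CTRL mice, with a log2 fold change of -1.02, SE 0.39, adjusted p = 0.037. That call was lost without CTRL mouse 1 (adjusted p = 0.143) or 2 (0.081) at 4 °C, without mouse 21 (0.0748) or 22 (0.0736) at 30 °C, and without the libraries richest in muscle RNA (log2 fold change -1.10, adjusted p = 0.0829). The log2 fold change was -0.68 without mouse 1. In BATKO mice Gatm had 52.9, 30.2, 65.3, 46.5 and 39.7 at 30 °C and 45.5, 30.6, 25.1 and 19.4 at 4 °C and did not pass (log2 fold change -0.64, SE 0.33, adjusted p = 0.14).

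**Figure D3:**
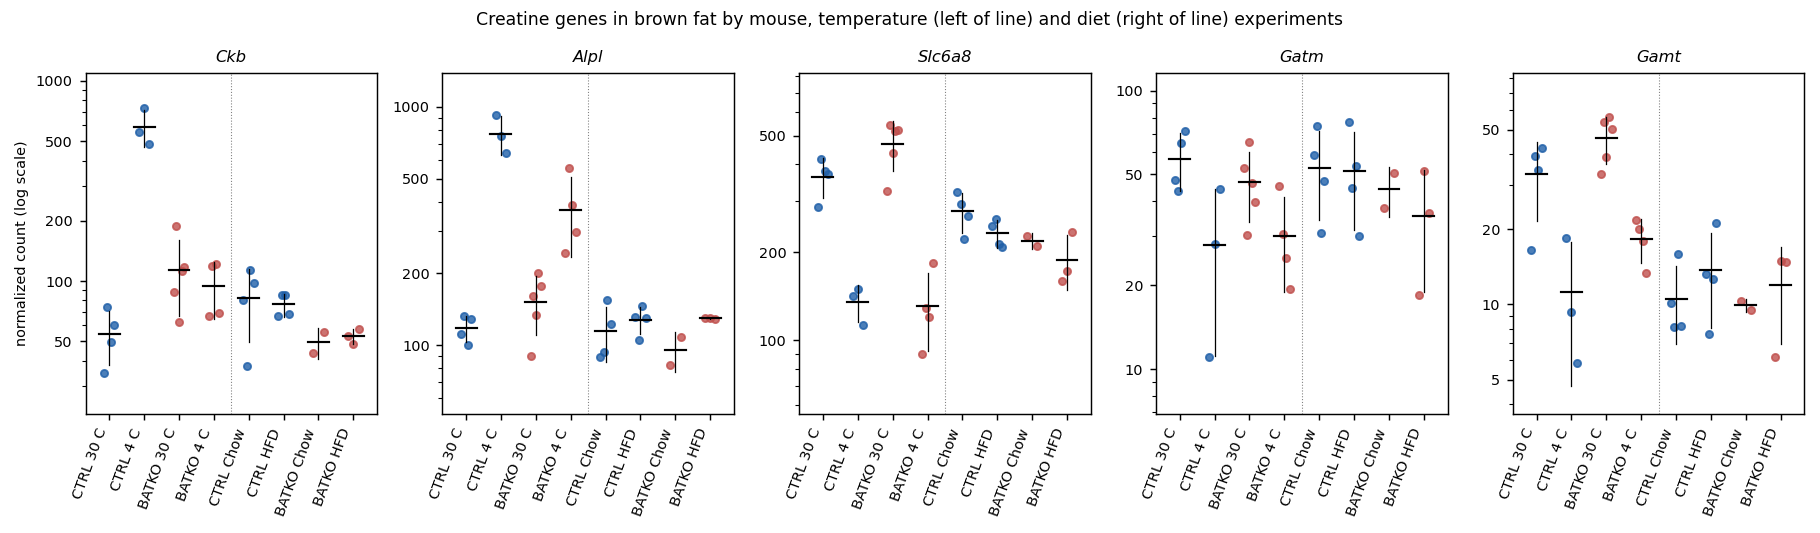
Normalised counts (log axis, different for each panel) of 5 creatine genes in every mouse of the temperature and diet experiments, which were normalised separately and lie left and right of the dotted line; points are mice (blue CTRL, red BATKO), horizontal bars means and vertical lines 1 SD either side. CTRL mice at 4 °C have the highest Ckb (590 ± 125, n = 3), against 94.3 ± 30.1 (n = 4) in BATKO mice at 4 °C, and the diet groups overlap for most genes.

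The diet comparisons called none of the 6 creatine genes. In CTRL mice HFD against chow gave 0 of 6 (background 3.94% of 12932 genes, with 2802 genes at unadjusted p below 0.05 and 872 by DESeq2). In BATKO mice HFD against chow also gave 0 of 6 (background 0.0696%, or 9 genes, with 1996 genes at unadjusted p below 0.05 and 253 by DESeq2). None of the 6 was among the genes at unadjusted p below 0.05 or called by DESeq2 in either comparison. BATKO against CTRL mice gave 0 of 6 on HFD (background 0%, with 691 genes at unadjusted p below 0.05 and 9 by DESeq2) and 0 of 6 on chow (background 0%, 1024 genes at unadjusted p below 0.05, 31 by DESeq2). The difference between the HFD responses gave 0 of 6 (background 0%, 740 genes at unadjusted p below 0.05, 0 by DESeq2). A group of 2 mice limits the precision of every comparison with BATKO mice on chow. Some marker sums did not overlap between diet groups. On chow the macrophage sum was 120 to 162 CPM in BATKO and 58.3 to 72.4 CPM in CTRL mice. The fibroblast sum there was 557 to 636 against 306 to 415 CPM. The brown adipocyte sum was 5114 to 6354 CPM in BATKO mice on HFD and 2648 to 3682 CPM on chow. It overlapped between HFD and chow in CTRL mice, and between the genotypes on chow. The part of these markers was not tested.

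Ckb in the diet experiment had 80.7, 37.4, 114 and 98.2 normalised counts in CTRL mice on chow, 67.1, 84.7, 85.6 and 68.1 in CTRL mice on HFD, 43.5 and 55.8 in BATKO mice on chow and 53.1, 48.5 and 57.8 in BATKO mice on HFD. On HFD the BATKO mice were all below the CTRL mice (log2 fold change -0.53, SE 0.28, adjusted p = 0.884), and on chow the groups overlapped (log2 fold change -0.73, SE 0.33, adjusted p = 0.612), the single creatine gene at unadjusted p below 0.05 in that comparison. Alpl ranged from 88.9 to 155 in CTRL mice on chow, 105 to 146 in CTRL mice on HFD, 82.5 to 108 in BATKO mice on chow and 129 to 129.8 in BATKO mice on HFD. The 3 BATKO mice on HFD were above the 2 on chow (log2 fold change 0.44, SE 0.23, adjusted p = 0.373). The HFD effect on Alpl in CTRL mice was a log2 fold change of 0.15 (95% interval -0.18 to 0.49). Slc6a8 ranged from 223 to 322 on chow and 209 to 259.6 on HFD in CTRL mice, and from 209.6 to 228 on chow and 159 to 234 on HFD in BATKO mice. Its HFD effect in CTRL mice was -0.25 on the log2 scale (95% interval -0.52 to 0.02). Gatm stayed between 18.5 and 77.0 and Gamt between 6.17 and 21.2 in the 13 mice.

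Ckmt2, the sarcomeric mitochondrial kinase, followed the muscle RNA in the samples. Its counts were 0 to 2 in the 10 libraries with less than 30 CPM of summed fast muscle markers, and 24 to 888 in the 21 libraries above 500 CPM. It was at 0 in 11 of 59 libraries, in which the muscle sum was at most 55.8 CPM. All 16 libraries with 3 counts or fewer had a muscle sum of at most 59.4 CPM, and all 43 with more had at least 61.4 CPM. In those 43 libraries Ckmt2 made 2.52 to 17.1 CPM (median 9.98) per 1000 CPM of muscle markers. The 3 genes most like it over the 59 mice, by Pearson's r of log2 CPM centred within each experiment, were the muscle genes Mylpf (0.98), Pgam2 (0.98) and Neb (0.97), where r with the muscle sum was 0.96. Mylpf is itself among the muscle markers summed.

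No comparison called Ckmt2, and its spread within groups was wide. Without the filter on low counts it passed in WT mice at 3 h (log2 fold change -1.98, adjusted p = 0.0226), 12 h (-1.81, 0.0272) and 24 h (1.26, 0.047), in directions that the muscle marker medians shared (-1.91, -1.73 and 1.02). In CTRL mice at 30 °C it had 0, 174, 641 and 1.06 normalised counts, in the same order of mice as muscle sums of 9.58, 1987, 4704 and 59.4 CPM. BATKO mice at 30 °C had 757, 0, 0, 22.8 and 574, beside muscle sums of 7721, 12.1, 13.4, 502 and 8427 CPM. In WT PTU mice the counts were 117, 9.57, 37.3 and 64.5 and at 24 h after TH 62.4, 211, 149 and 129, and the muscle sum was 90.1 to 626 CPM in the first group and 278 to 1084 CPM in the second. The log2 fold change at 24 h was 1.26, SE 0.67, adjusted p = 0.156. With the muscle sum as a covariate it was 0.23 (adjusted p = 0.466). In the cold, BATKO mice had a log2 fold change of -1.04, SE 1.47, adjusted p = 0.595, which turned to 1.43 (adjusted p = 0.000498) with the covariate. In CTRL mice the same comparison went from -2.44, SE 1.89, adjusted p = 0.296 to 0.58 (adjusted p = 0.155). The muscle-rich libraries of this experiment were all at 30 °C and held the highest Ckmt2 counts there, so leaving them out fixes the direction in advance and gives no test of Ckmt2. The 6 slow muscle markers, which were not part of the covariate, summed to 1.84 to 2.79 CPM in CTRL mice at 4 °C and 0.479 to 319 CPM at 30 °C, and to 1.6 to 106 and 0.957 to 196 CPM in BATKO mice. In CTRL mice 1 of the 6 was called lower at 4 °C, none in BATKO mice. None was at 0 throughout a group, and their part in the result was not tested.

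**Figure D4:**
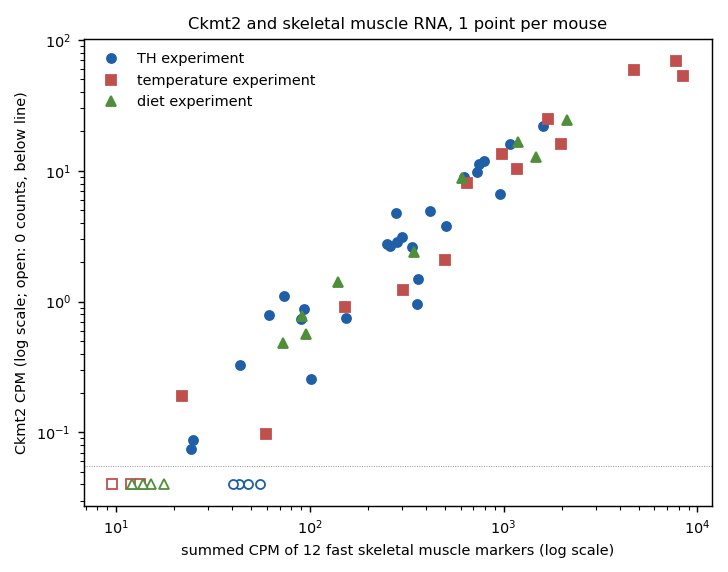
Ckmt2 CPM (log axis) against the summed CPM of 12 fast skeletal muscle markers (log axis), 1 point per mouse, with symbols for the 3 experiments; open symbols under the dotted line are the 11 mice with 0 Ckmt2 counts, placed at an arbitrary height. Ckmt2 climbs with muscle RNA through all experiments, and every library with 0 counts has a muscle sum of at most 55.8 CPM.

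For the other genes, over the same 59 mice, r with the muscle sum was 0.04 for Ckb, 0.11 for Alpl, -0.03 for Slc6a8, 0.13 for Gatm and -0.01 for Gamt. These correlations describe mice that share experiments and treatments. Alpl was the creatine gene most like Ucp1 (r = 0.84), and its 3 nearest genes were Dnaja3 (0.91), Mrs2 (0.90) and Slc25a39 (0.90). Ckb had an r of 0.29 with Ucp1 and 0.59 with Alpl, and its nearest genes were Macf1 (0.77), Tecpr1 (0.77) and H13 (0.76). Slc6a8 was opposite to Ucp1 (r = -0.68), and its nearest were Tspan4 (0.92), Impdh1 (0.84) and Syde1 (0.84). Gatm was nearest to Pja2 (0.73), Sec23a (0.72) and Dnttip2 (0.70), and Gamt to Epb41l1 (0.71), Snx12 (0.69) and Meg3 (0.69). Gatm and Gamt, the 2 steps of synthesis, had an r of 0.27 with each other.

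**Figure D5:**
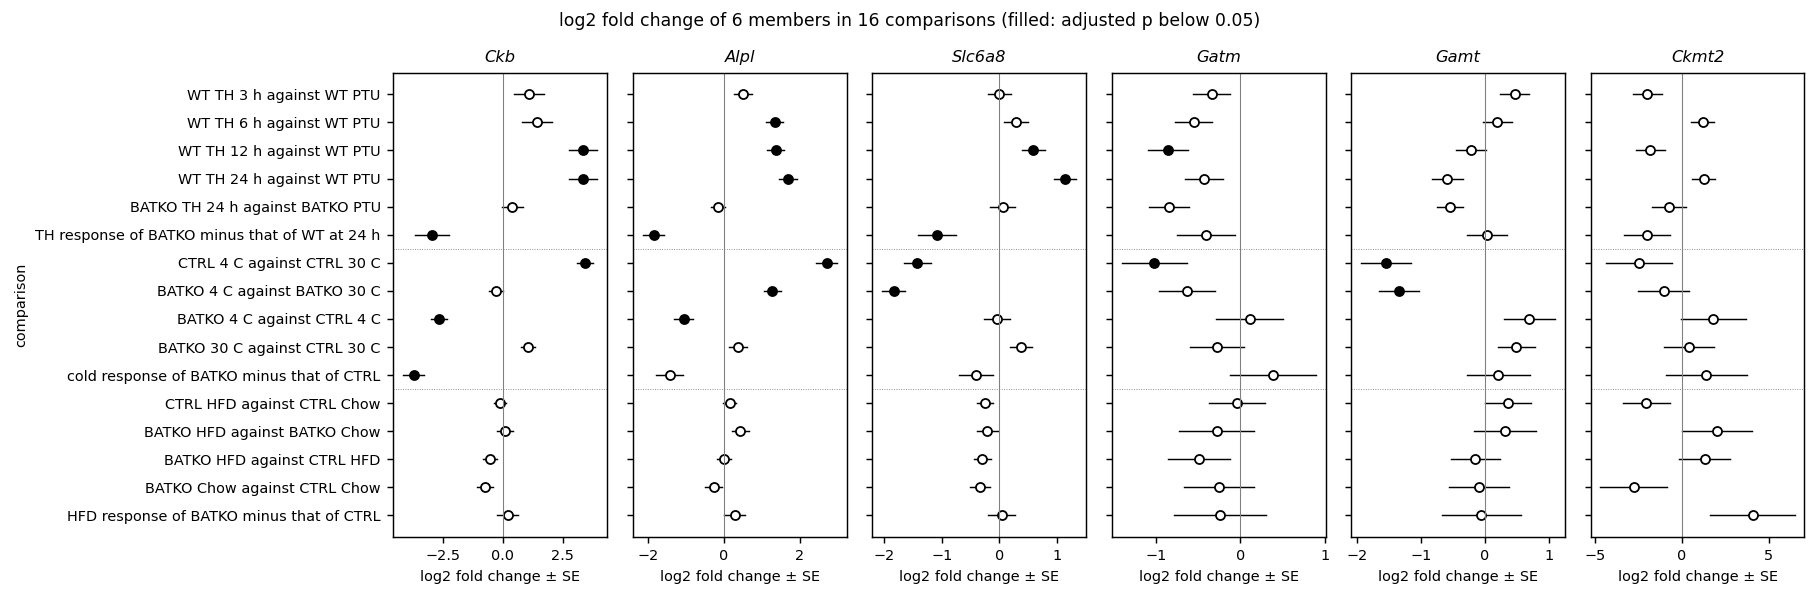
Fitted log2 fold change (point) and SE (line) of 6 creatine genes in the 16 comparisons, from edgeR; filled points have an adjusted p below 0.05, dotted lines separate the TH, temperature and diet experiments, and each panel has its own horizontal scale. Ckb is called higher in WT mice at 12 h and 24 h and in CTRL mice in the cold (3.43), and no point is filled among the diet comparisons.

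Genes that supply or use the cycle were taken from lists chosen by name, and their counts are set beside the share of all genes called, 32.7% for WT mice 24 h after TH and 49.1% for CTRL mice in the cold. Of 13 genes of arginine and glycine supply, 8 passed the filter, and 3 rose and none fell in WT mice 24 h after TH, near the 32.7% of all genes (median log2 fold change 0.50 against 0.01 over all genes). Among them Psph, the last enzyme of serine synthesis, went from 153 ± 22.2 to 422 ± 35.3 normalised counts (SD, n = 4) and rose by 1.46 on the log2 scale (adjusted p = 1.96e-07), and Shmt1, which interconverts serine and glycine, rose by 1.10 (adjusted p = 0.000109). In the cold 2 of the 8 rose and 4 fell in CTRL mice, where 49.1% of all genes were called (median -0.56 against -0.01), with Slc7a2, a transporter of arginine, at -1.85 (adjusted p = 0.00108; -1.23 and adjusted p = 0.0183 without the muscle-rich libraries) and Psat1, of serine synthesis, at -1.48 (adjusted p = 0.016). The call of Psat1 was lost without CTRL mouse 2 at 4 °C (adjusted p = 0.0733) or 20 at 30 °C (0.0696), and without the muscle-rich libraries (-0.92, adjusted p = 0.154).

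Of the 10 genes of methyl supply, which serve Gamt's reaction, 4 rose at 24 h after TH in WT mice, where 32.7% of all genes were called in either direction. Mthfd2, of folate metabolism, was called higher (1.24, adjusted p = 0.0353), and its call was lost without WT PTU mouse B2 (1.19, adjusted p = 0.0788), B3 (1.2, adjusted p = 0.0795) or B4 (1.12, adjusted p = 0.0873). Without TH mouse B27 the log2 fold change fell to 0.25 (adjusted p = 0.574), so that its size rests on this mouse. The call was also lost with the muscle covariate (adjusted p = 0.0626) and in a fit of the compared groups alone (0.0989). In the cold 3 rose and 2 fell in CTRL mice (median 0.12), a share near the 49.1% of all genes called. The largest changes were those of Ahcyl2, a relative of the enzyme that breaks down S-adenosylhomocysteine (-2.84, adjusted p = 6.91e-08), and Mtr, methionine synthase (-1.32, adjusted p = 4.41e-05).

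ATP leaves mitochondria through adenine nucleotide carriers and porins. In WT mice 24 h after TH 6 of 10 such exchange and adenylate kinase genes rose and none fell (median 0.43), against 32.7% of all genes called in either direction, with Ak1, adenylate kinase of the cytosol, up from 79.4 ± 25 to 335 ± 13.3 normalised counts (SD, n = 4; log2 fold change 2.07, adjusted p = 2.71e-07), and Slc25a4, a nucleotide carrier, up by 0.80 (adjusted p = 2.07e-05). In BATKO mice no gene of these lists was called after TH, where 0% of all 14178 genes were called. The difference of the responses, BATKO minus WT, was called lower for 3 of the 10, for 2 of 9 genes of arginine and glycine supply and for 2 of 10 of methyl supply, and higher for no gene of these 3 lists, where 12.3% of all genes were called in either direction. The response of Ak1 differed in BATKO mice by -1.95 (adjusted p = 0.0008). In the cold 5 of 10 rose and none fell in CTRL mice (median 0.62), a share near the 49.1% of all genes called, with Vdac2, a porin, at 1.28 (adjusted p = 6.51e-05) and Slc25a5, a nucleotide carrier, at 1.08 (adjusted p = 0.000236). A list of 9 genes held another creatine kinase, other phosphatases and genes of phosphate and pyrophosphate handling. Of these, 8 were found in the tables and 3 passed the filter in WT mice. The sodium-phosphate cotransporters Slc20a1 (1.25, adjusted p = 0.000481) and Slc20a2 (-1.0, adjusted p = 0.00012) were called at 24 h, and none of the 3 tested in CTRL mice in the cold. For the difference of the TH responses, BATKO minus WT, 1 of 4 tested genes of this list was called higher and 1 lower (12.3% of all genes), and Slc20a2 was the higher one (0.73, adjusted p = 0.0257).

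Ucp1, for comparison, rose by 0.93 on the log2 scale in WT mice 24 h after TH (adjusted p = 0.00164) and by 4.4 in CTRL mice in the cold (adjusted p = 4.56e-06). In BATKO mice it rose in the cold by 3.43 (adjusted p = 2.22e-05), and the difference between the genotypes' cold responses was -0.97 (adjusted p = 0.433). Elovl3, a fatty acid elongase of brown fat, was lower after TH (-2.25, adjusted p = 0.00107) and higher in the cold (10.33, adjusted p = 6.95e-08; 11.39 without CTRL mouse 22). Of the 7 thermogenic genes compared, 2 rose and 2 fell at 24 h after TH in WT mice (32.7% of all genes called), and all 7 rose in the cold in CTRL mice (49.1%) and 6 in BATKO mice (40.3%).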

How the data were processed

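RNA-seq (SENSE total RNA libraries, NextSeq 500) of BAT from 59 mice was deposited as tables of raw read counts per gene. Per the labels and methods, the authors aligned reads to GRCm38 (mm10) with Bowtie2 (Bowtie in the methods), removed alignments with quality below 10 and counted with htseq-count. Strand setting and gene annotation are not given in the sources used here. The deposited counts were analysed as they stand, with no column left without a sample.

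Each experiment was normalised on its own (TMM, edgeR 4.0.16, R 4.3.3) over genes with a mean normalised count above 10, with a group-means quasi-likelihood fit and Benjamini-Hochberg adjustment over all genes at 0.05. WT time points came from a fit of 20 WT mice, and BATKO TH and its difference from WT from a fit of 30 mice. SEs are the absolute log2 fold change over the square root of F, and intervals are 95%. Total counts were 7612059 to 18073627 per mouse, and low counts limit the precision for Gamt, Gatm and Ckmt2. Alternatives were DESeq2 1.42.0, other size factors, other filters, no mitochondrial genome counts, only the compared groups, a muscle covariate, no muscle-rich libraries (above 3 times the experiment's median) and each mouse left out. Levels per kilobase used GENCODE vM21 exon unions. Genes most like a member were those of highest Pearson's r of log2 CPM (prior count 2), centred within each experiment. Related genes named were the 2 of each list with the largest absolute change among those called, in WT mice at 24 h and CTRL mice in the cold. The result of 1 gene of the methyl supply list is not reported here. The procedure was tested on simulated data. Members and lists were chosen with earlier results of these data known.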

Additional observations from a re-analysis of the deposited data

Results flagged for a closer look

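In 4 of 72 combinations of gene and group (4 to 5 mice each), 1 mouse stood apart from the rest beyond Dixon's 95% limit, where chance gives about 1 in 20, or 3.6. Ckb in BATKO mice 24 h after TH had a ratio of gap to range of 0.808, from mouse 8 with 212 normalised counts against 66.0 to 94.0 in the other 4. Slc6a8 in WT mice 24 h after TH had a ratio of 0.867, from mouse B28 with 129 against 168 to 174. Ckmt2 had a ratio of 0.936 in CTRL mice on HFD, from mouse 9 with 76.0 against 0 to 4.86, and of 0.857 in BATKO PTU mice, from mouse 3 with 87.5 against 0 to 12.5. Both of these mice had the highest muscle marker sum of their group (613 and 958 CPM).

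Responses that differed between genotypes by the test of the difference were those to TH of Ckb (-2.92 on the log2 scale, BATKO minus WT), Alpl (-1.85) and Slc6a8 (-1.09), and that to cold of Ckb (-3.70, BATKO minus CTRL).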

How the results depend on the processing

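Of 130 counts of called creatine genes under other settings, 120 stayed within 1.5 times the first value and 10 did not, and of 147 counts with 1 mouse left out, 137 did and 10 did not. Without the filter on low counts, 1 gene was called at 3 h in WT mice (0 with it), 2 at 6 h (1 with it) and 2 for the difference of the cold responses (1 with it). In fits of the compared groups alone, 1 was called at 3 h, 2 at 6 h and 1 between BATKO and CTRL mice at 4 °C (2 in the full fit). With muscle-rich libraries left out, 2 were called at 6 h, and with the muscle covariate 2 at 12 h (4 without). DESeq2 called 2 for the difference of the cold responses, where it called 673 of all 13267 genes and edgeR 149. Shares of all genes called under the other settings are not given here. With a mean count above 50 required, 3 were called in CTRL mice in the cold (5 otherwise), since fewer genes were tested. Apart from that filter, the cause of these changes was not tested. Leaving out 1 mouse gave 1 to 2 calls at 6 h, 1 to 2 between BATKO and CTRL mice at 4 °C and 1 to 2 for the difference of the cold responses. Ckmt2 in BATKO mice in the cold turned from -1.04 to 1.43 with the muscle covariate and to 4.09 without muscle-rich libraries, a value fixed by the removal, which took the 30 °C mice with 757 and 574 normalised counts and left 0, 0 and 22.8. Without WT TH mouse B19, Ckmt2 at 12 h was called at -3.22 (adjusted p = 0.0385). Of 736 log2 fold changes under other settings, 690 kept their direction and side of the threshold, and of 882 with 1 mouse left out, 809 did. A fit without 1 BATKO mouse on chow leaves a single mouse, assumed to vary like the other groups. No paired analysis was possible because the groups compared within a genotype share no mouse number and the labels tie no recurring number to a shared animal. Group sizes of 2 to 5 mice and counts near 10 for Gamt and Ckmt2 limit what could be detected.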
